A study of Mus musculus with 6 samples.

Results

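Chromatin modifier and remodeler genes were followed in the retina of NMDA-treated mice with and without stem cell factor (SCF). The members were all genes whose symbol begins with Hdac, Kdm, Kmt, Kat, Setd, Sirt, Prmt, Ezh, Dnmt, Tet, Brd or Chd and a digit, or with Smarc and a letter from a to e. Of 31867 genes with an Ensembl transcript in the files, 116 had a matching symbol. Of these, 112 had a transcript in all 6 libraries and a level above 0 in at least 1. The others, Chd5, Kat2a, Kat6b-ps1 and Smarcd2, had no transcript shared by the 6 files and are not compared. Symbols carry no function, and 9 of the matched symbols mark an antisense RNA or a pseudogene, such as Chd3os and Smarca5-ps.

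All mice were wild type C57BL/6 (C57BL/6J in the study's methods) at postnatal week 5, and all received NMDA, a glutamate receptor agonist that kills retinal ganglion cells, by injection into the vitreous. In the SCF group, recombinant SCF, the ligand of the receptor c-kit, was injected into the vitreous 2 days after NMDA, and the study's methods give the NMDA group an equal volume of PBS. Retinas were taken a week after this injection, and oligo(dT)-enriched RNA was sequenced from 3 libraries per group. The number of mice behind a library was not given in the sources used here, so p-values measure the spread between these libraries, which may in part be technical, and no uninjured retina was compared here. In this injury model the retina has lost part of its ganglion cells, and in RNA of whole retina fewer cells of a type and less RNA per cell cannot be told apart.

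DNA in the nucleus is wound around histones, and enzymes that add or remove acetyl and methyl groups on histones or DNA set how open a stretch of chromatin is. Acetyltransferases (Kat) write acetyl marks, deacetylases (Hdac and the NAD-dependent sirtuins) remove them, and bromodomain proteins (Brd) read them. Methyltransferases (Kmt, Setd, Ezh, and Prmt for arginine) and demethylases (Kdm) do the same for methyl marks, and Dnmt and Tet enzymes act on cytosine in DNA. Chd and Smarc proteins are mostly ATP-driven enzymes that slide or evict nucleosomes, or subunits of their complexes. Rod photoreceptors, the most numerous cells of the mouse retina, pack their heterochromatin in the centre of the nucleus, and histone deacetylases have been studied in dying ganglion cells.

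Levels are FPKM, fragments per kilobase of transcript scaled to sequencing depth, summed per gene over the transcripts found in all 6 files. Multiplying a transcript's FPKM by its length gave whole fragment numbers for 98.4% to 98.5% of values, which puts 3404335 to 4440584 counted fragments in a library, or 14.1% to 18.2% of its read pairs. Chromatin genes took 0.280% to 0.351% of these fragments. This depth is shallow for many of them: 82 of the 112 genes had more than 3 fragments in every library, 23 had a mean level under 1 FPKM, and 8 never had more than 3 fragments (Dnmt3b, Kat2b-ps, Kmt2b, Kdm4b, Dnmt3l-ps1, Tet1, Kmt5c and Smarca4). No member was at 0 in all libraries.

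The median chromatin gene had a mean level of 4.25 FPKM, against 1.39 FPKM over all 25202 genes tested, and 37 members reached 10 FPKM. The summed level of all members was 975, 1196 and 1172 FPKM in NMDA replicates 1 to 3 and 1114, 1091 and 1187 FPKM in SCF replicates 1 to 3. The NMDA libraries thus spanned the SCF libraries, and no difference between the sums was detected (log2 difference 0.03, two-sided exact permutation p = 0.9, where 3 against 3 libraries cannot go below 0.1). Bromodomain genes had the highest summed level (162 FPKM over the 6 libraries), followed by Hdac (158 FPKM), Kat (134 FPKM) and Kdm (134 FPKM). The Tet genes had the lowest (12.8 FPKM).

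**Figure D1:**
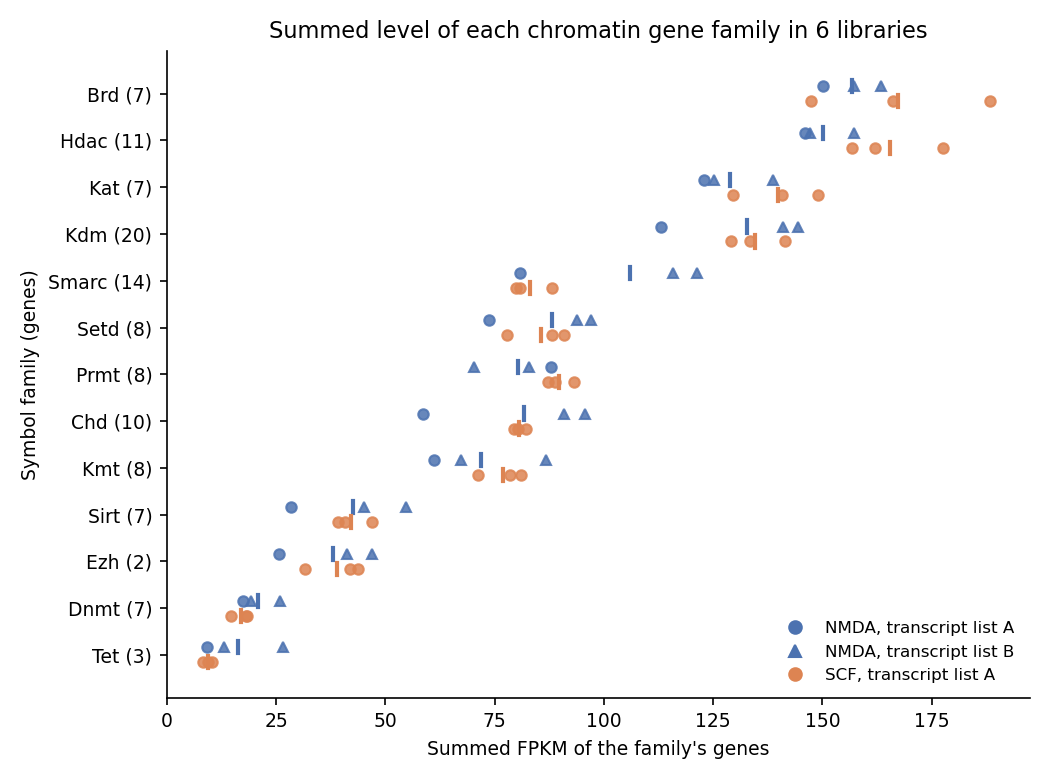
Summed FPKM (horizontal axis) of the genes of each symbol family (vertical axis, number of genes in parentheses) in the 3 NMDA and 3 SCF libraries. Points are libraries, vertical ticks are group means, and triangles mark the 2 NMDA libraries whose files hold a different set of transcripts. The groups overlap in all 13 families, and for Smarc the 2 triangles lie at 121 and 116 FPKM while the other 4 libraries lie between 79.9 and 88.2 FPKM.

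A retinal FPKM here is the level of those transcripts of a gene that the files list, and for chromatin genes these were often not the protein-coding ones. Transcripts annotated as protein coding carried 55.8%, 47.8% and 48.4% of the members' summed FPKM in NMDA replicates 1 to 3 and 51.9%, 57.6% and 54.1% in SCF replicates 1 to 3. Over all genes the share was 71.4% to 75.5%. Transcripts annotated with a retained intron carried 25.8% to 32.9% of the level of the members, against 5.84% to 9.92% over all genes. Every library showed this contrast between chromatin genes and all genes, which include the members. These shares weigh transcripts by level and cover only those found in all 6 files. Between the groups the coding share of the members did not separate (50.7% ± 4.43 in NMDA and 54.5% ± 2.84 in SCF, SD, n = 3 each, exact permutation p = 0.3).

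**Figure D2:**
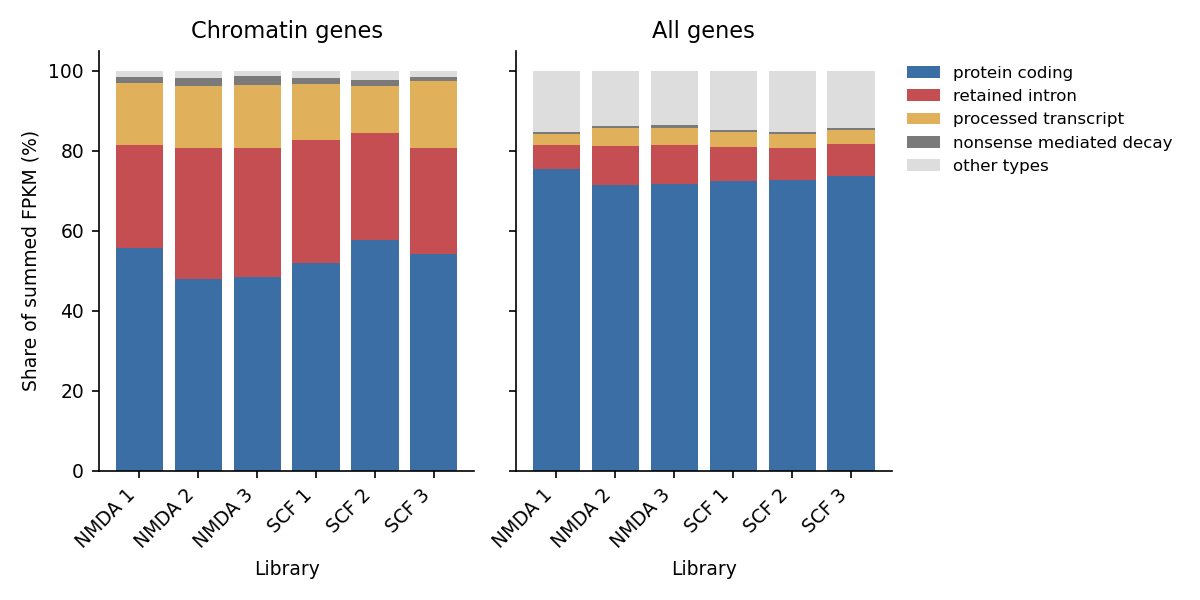
Share of summed FPKM (vertical axis, percent) by annotated transcript type in each of the 6 libraries (horizontal axis), for chromatin genes (left) and for all genes (right). Retained-intron transcripts take 25.8% to 32.9% of the chromatin gene level and 5.84% to 9.92% of the level of all genes.

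Of the 385 member transcripts listed in all 6 files, 176 were of the retained-intron type, 83 were processed transcripts without a coding frame and 102 were protein coding. That is 26.5% coding, against 35.0% of the transcripts of all genes. As a consequence 64 of the 116 symbols had a coding transcript in all 6 files, 19 had one only in some of the files and 33 had none in any. The families differed widely in this respect. Coding transcripts carried 94.5% of the Kat level, 73.3% of the Hdac level and 70.4% of the Prmt level. They carried 19.2% of the Smarc level, 12.1% of the Sirt level, 3.18% of the Tet level and none of the Ezh level. For Smarca4, the ATPase that alternates with Smarca2 in the BAF remodeling complex, the 1 transcript in all 6 files had at most 0.0706 FPKM, and a level of the gene cannot be read from it.

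A retained-intron transcript also contains ordinary exons, so its FPKM is not a measure of the intron alone. In the median retained-intron transcript of a member, 49.4% of the bases lay in exons of the same gene's protein-coding transcripts, and in the median processed transcript 64.7%. Some of these transcripts are shown at the boundary between coding exon and intron. Each carries part of the level of a gene described further on. Capitals mark the 15 intron bases and lower case the 15 exon bases, 5′ to 3′ on the gene's strand, with GRCm38 coordinates from GENCODE M21.
Hdac1 (chr4:129528912-129528941, minus strand, exon then intron): agcagatgcagagatGTAAGTATGTTCCCT
Chd4 (chr6:125120190-125120219, plus strand, intron then exon): CTCCCTCTGTCCCAGgaggaagaggaggta
Ezh2 (chr6:47533823-47533852, minus strand, intron then exon): CTGCTTACTCTCTAGcacttactgctggca
Hdac5 (chr11:102197771-102197800, minus strand, intron then exon): CATGTCCCTCATCAGgatattcaccatggc
The intron begins with GT in the Hdac1 transcript and ends with AG in the other three, the usual ends of a mammalian intron. Coding exons made up 45.4% of the bases of the Hdac1 transcript, 46.7% in Chd4, 15.4% in Ezh2 and 65.3% in Hdac5.

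The files also hold different sets of transcripts. NMDA replicate 1 and the 3 SCF libraries share one list (list A) and NMDA replicates 2 and 3 share another (list B), so a difference between lists is partly a difference between groups and cannot be told apart from one within the NMDA group. Among chromatin genes, 76 transcripts were listed in B alone and 36 in A alone. The B-only transcripts summed to 271 and 238 FPKM in NMDA replicates 2 and 3, or 18.4% and 16.9% of those libraries' chromatin gene level, against 11.4% and 10.9% over all genes. The A-only transcripts summed to 4.35 FPKM in NMDA replicate 1 and to 5.47, 7.26 and 4.98 FPKM in SCF replicates 1 to 3. For chromatin genes, then, list B added far more level than list A. Among the B-only transcripts were coding ones of Kdm5b (24.4 and 23.1 FPKM), Chd1 (20.9 and 21 FPKM) and Kdm5a (13.6 and 16 FPKM) and a retained-intron one of Kmt5c (25.7 and 16.8 FPKM), for which no level is given in the other 4 libraries. None of these enters a comparison between groups.

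**Figure D3:**
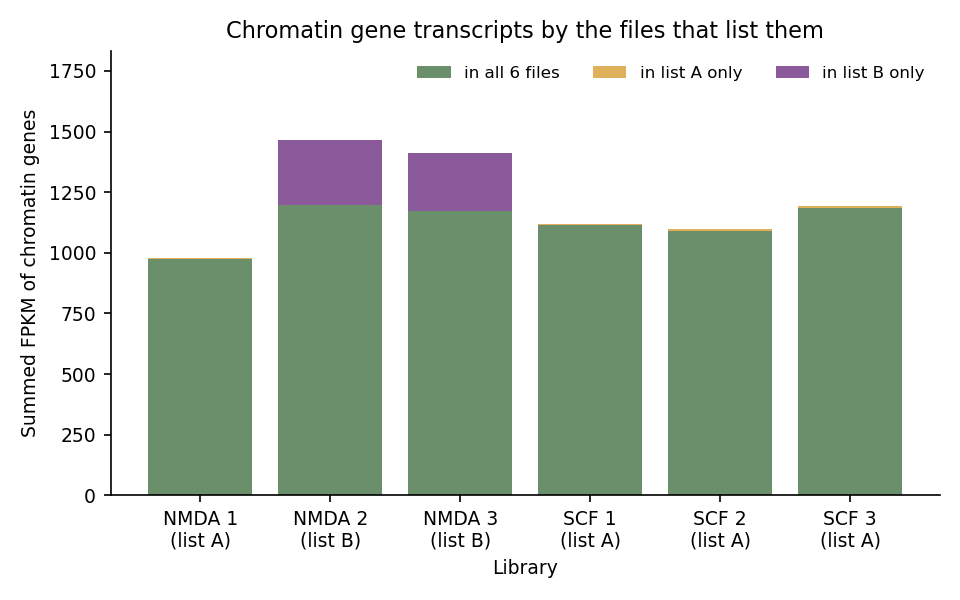
Summed FPKM of chromatin gene transcripts (vertical axis) in each library (horizontal axis), stacked by the files that list the transcript. Transcripts in list B alone add 271 and 238 FPKM to NMDA replicates 2 and 3, and those in list A alone add at most 7.26 FPKM to a library.

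The transcripts in all 6 files differed with the list as well. Both list B libraries lay above all 4 list A libraries for 31 of the 112 members (27.7%), against 14.4% of all genes, and below them for 7 (6.25%), against 10.9% of all genes. At a mean level of at least 1 FPKM the counts were 26 of 89 above (29.2%), against 17.9%, and 5 below (5.62%), against 17.3%. Within list A, all 3 SCF libraries lay above NMDA replicate 1 for 39 members (34.8%, against 23.8% of all genes) and below it for 15 (13.4%, against 23.6%). List B libraries thus lay above list A more often than below it, and NMDA replicate 1 lay below the SCF libraries more often than above them.

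Comparing SCF with NMDA, no chromatin gene passed the thresholds of the study (a fold of 2 or more with an adjusted p of 0.001 or less), and none passed an adjusted p of 0.05 (limma on log2(FPKM + 1), Benjamini-Hochberg over 25202 genes; percent called of all genes 0). The smallest adjusted p of a member was 0.536. With voom on recovered fragments, no member passed the thresholds of the study either, and 12 had an unadjusted p of at most 0.05. The study's enrichment of its own differential genes included chromatin modification. Among those genes were Hdac2, Kdm1a, Kdm3a, Kdm6a, Kat6b, Setd2, Brd3 and Tet2 as up and Brd2, Brd7, Tet3 and Chd7 as down. Here the log2 fold changes of Hdac2, Tet3 and Chd7 had the sign given there and the others the opposite sign. Except for Kat6b and Tet2, each of these log2 fold changes was smaller than its standard error. With the transcript list as a term, all but Kat6b and Brd7 had the sign given there. Why the calls differ was not tested. Without adjustment, 10 members had a limma p of at most 0.05 (8.93%, against 9.22% of all genes), 4 with the higher level in SCF (3.57%, against 4.33%) and 6 with the lower (5.36%, against 4.9%). The count of 10 became 26 without NMDA replicate 1, 6 without SCF replicate 2 and 6 without SCF replicate 3. Shares of all genes are not given for these settings or for voom. With the transcript list as a term, a fold change sets the SCF libraries against NMDA replicate 1 alone, the only NMDA library of list A. The groups did not overlap for 17 members (15.2%, against 14.1% of all genes), 9 with SCF above (8.04%, against 7.63%) and 8 with SCF below (7.14%, against 6.45%). The median log2 fold change of the members was -0.04, with 49 positive and 63 negative values, against -0.01 over all genes. On these measures of the 3 SCF against the 3 NMDA libraries, where a value for all genes is given, the members were close to that background. The shares by transcript list in the paragraph above lay further from theirs.

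**Figure D4:**
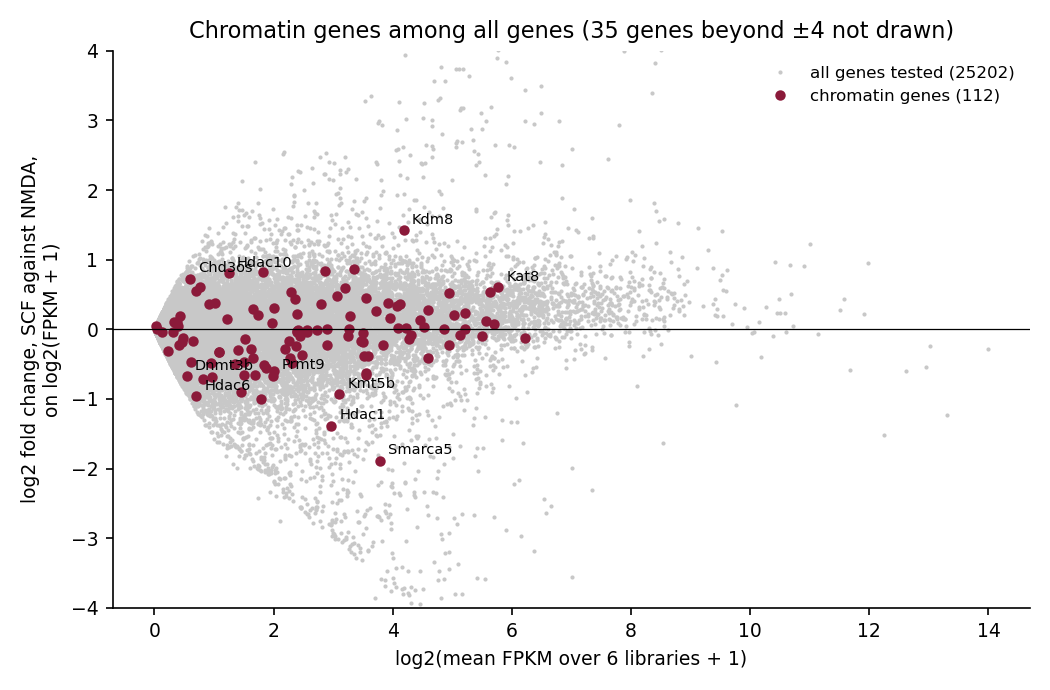
Log2 fold change of SCF against NMDA on log2(FPKM + 1) (vertical axis) against log2(mean FPKM over 6 libraries + 1) (horizontal axis) for all 25202 genes tested (grey) and the 112 chromatin genes (dark red). The 10 members with the smallest unadjusted p are named, and the chromatin genes have a median of -0.04.

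Among the acetyltransferases, Kat2b (PCAF, a co-activator that acetylates histone H3) was the most abundant chromatin gene of all, at 70.1, 70.2 and 90.6 FPKM in NMDA replicates 1 to 3 and 68.9, 74.3 and 66.8 FPKM in SCF replicates 1 to 3. The groups overlapped and the log2 fold change was -0.13 ± 0.17 (SE). Kat8 (MOF, which acetylates lysine 16 of histone H4) was the second, and it stood at 45.3, 45.4 and 35.6 FPKM in NMDA and at 54.3, 72.9 and 66.7 FPKM in SCF. All 3 SCF libraries lay above all 3 NMDA libraries. These values rest on 233 to 390 fragments a library and wholly on coding transcripts. The log2 fold change was 0.61 ± 0.19 (SE), its limma p was 0.015 (adjusted p = 0.536), and the exact permutation p was 0.1, the smallest possible. With the transcript list as a term the log2 fold change was 0.49. The other Kat genes lay under 6 FPKM, and Kat6b, a retained-intron level only, had 1.81, 3.12 and 4.09 FPKM in NMDA against 1.35, 1.43 and 1.62 FPKM in SCF.

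The promoter of Kat8 is printed because its gene had the highest fragment count in its lowest library among the 10 members of smallest p. It spans 250 bases before and 50 after the start (RefSeq, GRCm38.p6, chr7:127912267-127912566, plus strand), and capitals mark the GC box, searched as GGGCGG on both strands.
Kat8 promoter: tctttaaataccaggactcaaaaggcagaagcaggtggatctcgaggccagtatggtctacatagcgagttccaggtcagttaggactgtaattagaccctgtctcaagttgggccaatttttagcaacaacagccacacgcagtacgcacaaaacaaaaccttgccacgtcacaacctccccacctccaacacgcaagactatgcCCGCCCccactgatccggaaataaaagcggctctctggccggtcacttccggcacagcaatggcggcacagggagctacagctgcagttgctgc
The window also holds a CCAAT box and 12 CpG dinucleotides. Of the 116 symbols, 87 matched an entry of the promoter table. All entries whose symbol fits the rule, whether or not it was among the 116, gave 124 promoters. A GC box was found in 67.7% of these and in 35.7% of all 32851 promoters of that length, the median CpG number was 23 against 7, a TATA box (TATAAA on both strands) was found in 4.03% against 13.6%, and a CCAAT box (both strands) in 34.7% against 37.4%. A match of letters is a description of the window and not of a bound site.

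The class I deacetylases, which sit in nuclear co-repressor complexes, differed among each other. Hdac2 was the most abundant deacetylase, at 43.3, 48.0 and 58.2 FPKM in NMDA and 54.8, 47.7 and 53.8 FPKM in SCF, and the groups overlapped. Hdac1, its closest paralog, was at 3.21, 14.8 and 14.2 FPKM in NMDA and at 2.87, 2.01 and 3.88 FPKM in SCF. The high values were those of NMDA replicates 2 and 3 alone, the list B libraries, while NMDA replicate 1 lay within the SCF range. They came from the retained-intron transcript shown above, which was listed at 0 in NMDA replicate 1 and in all SCF libraries and at 11.0 and 11.3 FPKM in NMDA replicates 2 and 3. The coding transcript of Hdac1 stood at 2.16, 1.73 and 1.77 FPKM in NMDA and at 1.15, 0.987 and 1.14 FPKM in SCF. For the gene the log2 fold change was -1.38 ± 0.53 (SE, limma adjusted p = 0.536). It was -0.13 with the transcript list as a term and -2.01 without NMDA replicate 1 (limma adjusted p = 0.0255). Without that library the NMDA group holds list B alone, so group and list cannot be told apart.

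Hdac3, the catalytic subunit of the NCoR co-repressor, was at 9.48, 12.8 and 17.5 FPKM in NMDA and at 5.64, 7.40 and 11.2 FPKM in SCF, and the groups overlapped. Hdac8 was at 12.2, 10.8 and 12.8 FPKM and at 11.2, 21.5 and 16 FPKM. Among the class IIa enzymes, which shuttle between nucleus and cytoplasm, Hdac5 was at 16.3, 14 and 12.5 FPKM in NMDA and at 19.6, 18.2 and 18.1 FPKM in SCF, without overlap (log2 fold change 0.37 ± 0.18, SE). Only 10.4% of this level was in coding transcripts, and most was in the retained-intron transcript whose boundary is printed above. Hdac11, the single class IV enzyme, was at 54.1, 34.7 and 31.9 FPKM in NMDA and at 49.9, 57.3 and 65.0 FPKM in SCF, the 2 low values being again those of list B.

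The smallest p of any member was that of Hdac6, the X-linked deacetylase of tubulin. It was at 0.867, 1.21 and 1.34 FPKM in NMDA and at 0, 0.321 and 0 FPKM in SCF. The groups did not overlap, but these levels are 2, 4 and 5 fragments against 0, 1 and 0 fragments. The log2 fold change of -0.96 ± 0.22 (SE, limma adjusted p = 0.536, exact permutation p = 0.1) therefore rests on at most 5 fragments in a library. Hdac10, a polyamine deacetylase, was at 0.609, 0.997 and 0.545 FPKM in NMDA and at 2.06, 1.34 and 2.69 FPKM in SCF, from 5 to 14 fragments a library and with no coding transcript among them. Its log2 fold change was 0.80 ± 0.32 (SE, limma adjusted p = 0.536, exact permutation p = 0.1). Of the 11 Hdac genes, 6 had a positive and 5 a negative log2 fold change, and the summed Hdac level was 150 ± 6.19 FPKM in NMDA and 165 ± 10.7 FPKM in SCF (SD, n = 3 each, exact permutation p = 0.2, 0.65 adjusted over the 13 families).

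The sirtuins were lower. Sirt2, a mostly cytoplasmic deacetylase, led with 13, 17.6 and 17.2 FPKM in NMDA and 20.1, 12.7 and 16.1 FPKM in SCF, in overlapping groups and with no coding transcript in all 6 files. Sirt1, the best known nuclear member, had 2.21, 3.74 and 5.74 FPKM against 6.09, 4.48 and 3.20 FPKM. Sirt6 had 8.20 and 3.01 FPKM in the list B libraries and 0.641 to 1.10 FPKM in the other 4. No Sirt gene had a limma p of at most 0.05.

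**Figure D5:**
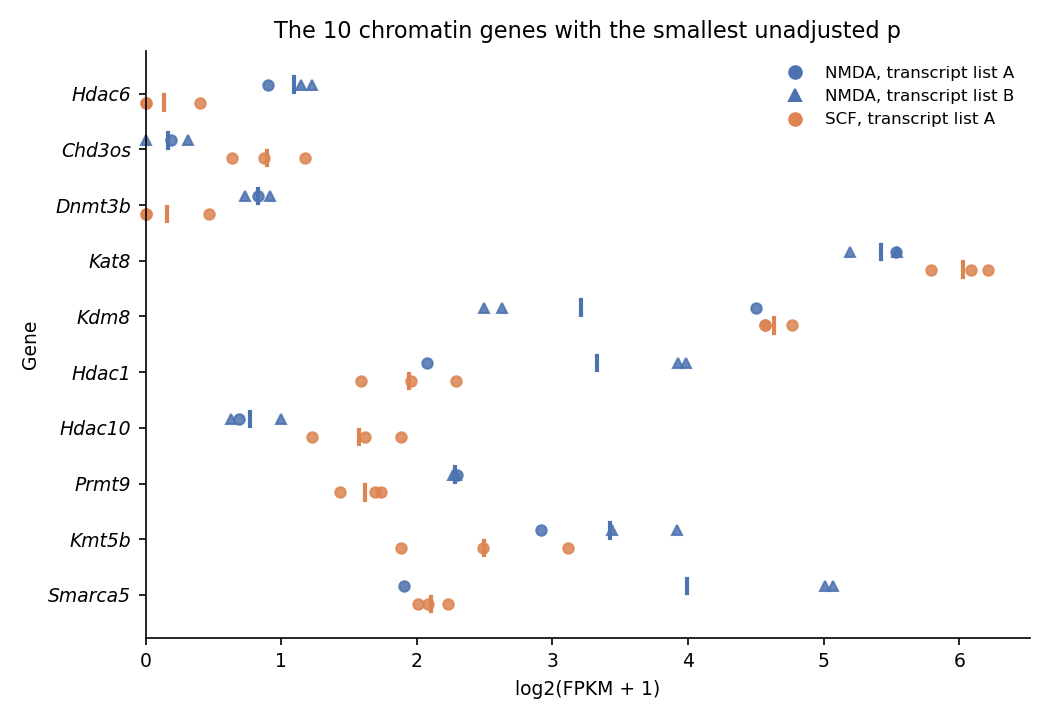
Level on log2(FPKM + 1) (horizontal axis) of the 10 chromatin genes with the smallest unadjusted p (vertical axis, smallest on top) in 3 NMDA and 3 SCF libraries. Points are libraries, vertical ticks are group means and triangles mark the list B libraries. In Kdm8, Hdac1 and Smarca5 NMDA replicate 1 lies beside the SCF libraries and apart from the 2 triangles.

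Among the lysine methyltransferases, Kmt5a (SET8, which places the first methyl group on lysine 20 of histone H4) was the most abundant Kmt gene, at 25.6, 30.6 and 17.9 FPKM in NMDA and at 35.0, 33.9 and 36.1 FPKM in SCF. The groups did not overlap, at 156 to 289 fragments a library, and the log2 fold change was 0.52 ± 0.22 (SE, limma adjusted p = 0.536, exact permutation p = 0.1). Its main coding transcript stood at 16.9, 12.6 and 9.13 FPKM in NMDA and at 26.4, 25.5 and 27.2 FPKM in SCF, and with protein-coding transcripts only the log2 fold change was 1.02. Kmt5b, which adds further methyl groups to the same residue, lay the other way, at 6.54, 14.1 and 9.82 FPKM in NMDA and at 2.69, 4.6 and 7.66 FPKM in SCF. NMDA replicate 1 lay inside the SCF range, and the log2 fold change of -0.93 ± 0.39 (SE, limma adjusted p = 0.536, exact permutation p = 0.2) was -0.42 with the transcript list as a term. Kmt2c (MLL3, an enhancer methyltransferase of lysine 4 of histone H3) was at 19.3, 22.2 and 20.8 FPKM in NMDA and at 22.5, 28.3 and 25.2 FPKM in SCF, a difference of 0.27 ± 0.17 (SE) on the log2 scale. Its paralog Kmt2d did not exceed 2.14 FPKM and was at 0 in 4 libraries.

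Setd7, a methyltransferase of histone and other proteins, led the Setd genes with even levels of 35.2, 35.5 and 34.2 FPKM in NMDA and 37.2, 28.0 and 33.9 FPKM in SCF. The Polycomb methyltransferases of lysine 27 of histone H3 were both present, and neither had a coding transcript in all 6 files. Ezh1 was at 14.9, 28.5 and 17.2 FPKM in NMDA and at 23.3, 18.8 and 22.4 FPKM in SCF. Ezh2 was at 10.8, 18.5 and 24.0 FPKM and at 20.3, 12.8 and 19.4 FPKM, so that both overlapped between the groups. No gene of the Setd and Ezh families had a limma p of at most 0.05.

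Of the arginine methyltransferases, Prmt8, a membrane-bound and largely neuronal enzyme, was the most abundant, at 39.1, 36.5 and 24.7 FPKM in NMDA and at 38.0, 42.0 and 36.7 FPKM in SCF. It lay above Prmt1, the enzyme that makes most asymmetric dimethylarginine in other tissues, in all 6 libraries, though 31.0% of the Prmt1 level was in coding transcripts against 100% for Prmt8. Prmt9, a splicing factor methyltransferase, was at 3.92, 3.88 and 3.82 FPKM in NMDA and at 2.33, 1.70 and 2.23 FPKM in SCF. The 3 NMDA libraries were close together and above all SCF libraries, at 23 to 60 fragments a library. The log2 fold change was -0.66 ± 0.27 (SE, limma adjusted p = 0.536, exact permutation p = 0.1). With the list as a term, which compares SCF with NMDA replicate 1 alone, the log2 fold change was -0.68. The level was that of retained-intron transcripts only.

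Among the demethylases, Kdm7a, which acts on lysines 9 and 27 of histone H3, was the most abundant, at 29.6, 32.7 and 34.4 FPKM in NMDA and at 26.8, 30.2 and 25.2 FPKM in SCF, in overlapping groups. Kdm8, a JmjC-domain hydroxylase, was at 21.6, 4.63 and 5.18 FPKM in NMDA and at 26.1, 22.7 and 22.8 FPKM in SCF. All of this was in 1 coding transcript, counted with 176, 44 and 55 fragments in NMDA and 188 to 214 in SCF. NMDA replicate 1 was close to the SCF libraries, and the 2 list B libraries alone were low. The log2 fold change of 1.43 ± 0.51 (SE, limma adjusted p = 0.536, exact permutation p = 0.1) was 0.13 with the transcript list as a term and 2.07 without NMDA replicate 1 (limma adjusted p = 0.00382). In the last of these fits group and list cannot be told apart. Of the 20 Kdm genes, 7 had a positive and 13 a negative log2 fold change, and Kdm8 was the only 1 with a limma p of at most 0.05.

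In the DNA methylation system, the de novo methyltransferase Dnmt3a was the most abundant, at 9.18, 14.1 and 12.8 FPKM in NMDA and at 9.28, 8.46 and 8.93 FPKM in SCF, and NMDA replicate 1 lay inside the SCF range. The maintenance enzyme Dnmt1 was at 5.08, 5.92 and 3.43 FPKM and at 3.78, 3.36 and 7.83 FPKM. Dnmt3b, the other de novo enzyme, was at 0.777, 0.665 and 0.894 FPKM in NMDA and at 0.386, 0 and 0 FPKM in SCF. That is 2, 2 and 3 fragments against 1, 0 and 0 (log2 fold change -0.67 ± 0.20, SE, limma adjusted p = 0.536). Tet2, which oxidises 5-methylcytosine, was at 6.64, 10.8 and 24.1 FPKM in NMDA and at 8.71, 7.15 and 6.72 FPKM in SCF, mostly in retained-intron transcripts and with 1 library, NMDA replicate 3, far above the others. Tet3 had 2.64, 2.36 and 2.07 FPKM in NMDA and 1.59, 2.07 and 1.63 FPKM in SCF, and the lowest NMDA and the highest SCF value were nearly equal.

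Brd2, a BET protein that binds acetylated histones, was the most abundant reader, at 50.02, 44.2 and 37.1 FPKM in NMDA and at 50.3, 31.7 and 65.9 FPKM in SCF, the lowest and the highest value both being SCF libraries. Only 1.14% of this level was in coding transcripts, and most was in a short processed transcript of 366 bases, 90.7% of which lie in coding exons. Brd1, a scaffold of acetyltransferase complexes, was at 27.0, 30.3 and 31.0 FPKM in NMDA and at 32.7, 32.2 and 37.3 FPKM in SCF, without overlap (log2 fold change 0.20 ± 0.16, SE). Brd8 was at 2.28, 3.46 and 4.53 FPKM against 2.0, 1.89 and 1.91 FPKM. No Brd gene had a limma p of at most 0.05 on all transcript types. With protein-coding transcripts only, a setting chosen after seeing the data, the log2 fold change of Brd1 was 0.41 with an unadjusted limma p under 0.05, and that of Brd2 was -0.35 and did not pass.

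Chd6 was the most abundant Chd remodeler, at 30.8, 48.3 and 59.9 FPKM in NMDA and at 43.1, 43.3 and 38.5 FPKM in SCF, so that the 2 list B libraries were the highest and NMDA replicate 1 the lowest. Chd4, the ATPase of the NuRD complex, was at 11.0, 15.6 and 14.6 FPKM and at 16.7, 12.6 and 16.8 FPKM, all in non-coding transcript types including the one printed above. Chd3os, whose symbol marks an antisense RNA although its transcript is annotated as protein coding, was at 0.141, 0.242 and 0 FPKM in NMDA and at 1.26, 0.829 and 0.556 FPKM in SCF, which is 1, 2 and 0 fragments against 9, 6 and 4 (log2 fold change 0.73 ± 0.22, SE, limma adjusted p = 0.536). Whether the counting used strand was not given in the sources used here. Chd3 itself, on the other strand, does not overlap Chd3os in the annotation, and overlap with other genes was not examined.

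Smarca5 (SNF2H, the ATPase of ISWI complexes) had the largest log2 fold change of the 112 members. It was at 2.74, 31.3 and 32.5 FPKM in NMDA and at 3.22, 3.70 and 3.03 FPKM in SCF. Only NMDA replicates 2 and 3 were high, at 708 and 752 fragments, while NMDA replicate 1 with 23 fragments lay beside the SCF libraries with 18 to 39. Unlike for Hdac1, the difference was in the coding transcript, which stood at 0.865, 28.8 and 27.1 FPKM in NMDA and at 0.668, 1.65 and 1.28 FPKM in SCF. The log2 fold change was -1.89 ± 0.80 (SE, limma adjusted p = 0.536, exact permutation p = 0.4). It was -2.93 without NMDA replicate 1 (limma adjusted p = 0.00181), a fit in which group and list cannot be told apart. It turned to 0.21 when the transcript list was added to the model, so its direction rests on the list B libraries. Smarca5-ps, its pseudogene, was at 3.63, 4.14 and 3.71 FPKM in NMDA and at 1.68, 2.58 and 2.31 FPKM in SCF, without overlap. Smarca5-ps had 30, 50 and 50 fragments in NMDA. How the counting treated reads that match both a gene and its pseudogene was not given in the sources used here, and sharing of reads between them was not tested.

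The promoters of Smarca5 (RefSeq, GRCm38.p6, chr8:80739410-80739709, minus strand) and Kdm8 (chr7:125444370-125444669, plus strand) are shown as those of the members with the largest differences in each direction, with the GC box in capitals.
Smarca5 promoter: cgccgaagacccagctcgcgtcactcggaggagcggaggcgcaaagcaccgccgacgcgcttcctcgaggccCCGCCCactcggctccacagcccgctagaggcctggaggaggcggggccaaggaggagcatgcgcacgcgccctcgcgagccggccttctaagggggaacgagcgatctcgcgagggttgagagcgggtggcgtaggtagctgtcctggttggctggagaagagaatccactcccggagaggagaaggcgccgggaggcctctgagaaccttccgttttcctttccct
Kdm8 promoter: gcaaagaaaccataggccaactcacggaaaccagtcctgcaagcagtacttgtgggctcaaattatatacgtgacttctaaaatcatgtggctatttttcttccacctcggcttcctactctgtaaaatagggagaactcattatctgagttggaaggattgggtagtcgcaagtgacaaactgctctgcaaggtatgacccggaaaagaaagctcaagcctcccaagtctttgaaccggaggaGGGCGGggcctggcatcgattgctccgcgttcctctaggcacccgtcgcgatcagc
Both windows hold 1 GC box. The Smarca5 window has 32 CpG dinucleotides and 67.7% G or C, and the Kdm8 window has 13 CpG dinucleotides, 50% G or C and a CCAAT box.

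Smarca2 (BRM, the other BAF ATPase) was the most abundant Smarc gene, at 19.4, 25.7 and 35.8 FPKM in NMDA and at 20.8, 21.2 and 16.5 FPKM in SCF, with 8.73% in coding transcripts. The shared BAF subunits Smarce1, Smarcc1 and Smarcb1 had log2 fold changes of -0.18, -0.17 and 0.00, each smaller than its standard error. Smarcd3, a BAF subunit of neurons and muscle, was at 6.45, 11.5 and 2.45 FPKM in NMDA and at 11.6, 9.91 and 13.2 FPKM in SCF (log2 fold change 0.87 ± 0.45, SE, limma adjusted p = 0.552). The summed Smarc level was 106 ± 21.9 FPKM in NMDA and 83.0 ± 4.52 FPKM in SCF (SD, n = 3 each, exact permutation p = 0.2), with NMDA replicate 1 at 80.9 FPKM.

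For 25 pairs of paralogs or partners, the log2 ratio of the 2 levels (with 0.1 FPKM added to each) was compared within libraries, which cancels any factor common to a library. Only Hdac2 over Hdac1 and Hdac3 over Hdac8 had groups without overlap. The Hdac2 to Hdac1 ratio was 3.72, 1.69 and 2.03 in NMDA and 4.21, 4.50 and 3.76 in SCF, so that NMDA replicate 1 was just short of the lowest SCF library. The Hdac3 to Hdac8 ratio was -0.36, 0.25 and 0.45 in NMDA and -0.97, -1.53 and -0.51 in SCF. Both reached the smallest exact permutation p of 0.1, which was 0.978 after adjustment over the 25 pairs. On the transcripts listed, several orders were the same in all 6 libraries: Dnmt3a lay above Dnmt1, Tet2 above Tet3, Smarcc1 above Smarcc2 and Kdm6a above Kdm6b.

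Chromatin genes whose symbols fall outside the rule were read from 7 lists of complexes and enzyme classes, chosen by role. Of 134 listed genes 122 had a value, 5 had a limma p of at most 0.05 with the higher level in SCF and 6 with the lower (9.02% together, against 9.22% of all genes), and none passed an adjusted p of 0.05. Among remodelers and chaperones, Ruvbl1, an AAA ATPase of INO80-type complexes, was at 68.2, 52.7 and 46.8 FPKM in NMDA and at 84.0, 88.2 and 94.1 FPKM in SCF. The histone chaperone Asf1b was at 9.40, 0.310 and 1.16 FPKM and at 9.99, 13.1 and 11.8 FPKM. Smyd5, the first of the other methyltransferases, was at 22.2, 18.4 and 20.4 FPKM and at 28.6, 32.5 and 31.2 FPKM, and Nsd2 was at 5.53, 10.7 and 16.6 FPKM and at 6.21, 8.17 and 3.97 FPKM. Ruvbl1, Asf1b and Smyd5 were above all NMDA libraries in all SCF libraries, and Asf1b in NMDA replicate 1 was close to the SCF libraries.

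The HDAC co-repressor partners held the widest gaps between lists. Sap18 was at 1.09, 16.8 and 13.1 FPKM in NMDA and at 0.729 to 1.31 FPKM in SCF, and Mbd2, a reader of methylated DNA, was at 1.23, 33.5 and 43.9 FPKM in NMDA and at 0.596 to 1.99 FPKM in SCF. Like Hdac1, their partner in these complexes, both were high in NMDA replicates 2 and 3 alone. Of the Polycomb genes, Bmi1 was at 16.5, 18.0 and 16.4 FPKM in NMDA and at 14, 11.1 and 11.3 FPKM in SCF, without overlap.

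Of the BAF subunits outside the rule, Arid2 was at 7.58, 5.06 and 3.42 FPKM in NMDA and at 9.47, 11.8 and 9.69 FPKM in SCF, and Dpf2 at 5.22, 8.51 and 6.92 FPKM and at 14.5, 6.44 and 14.9 FPKM. Of the COMPASS subunits, which assist the Setd1 and Kmt2 enzymes, Wdr82 was at 98.4, 90.2 and 78.2 FPKM in NMDA and at 119, 109 and 116 FPKM in SCF, and Paxip1 at 6.54, 9.0 and 7.86 FPKM and at 4.20, 6.13 and 4.94 FPKM. Among acetyltransferases and readers, Taf1 was at 0.401, 0.121 and 0.0587 FPKM in NMDA and at 0.68, 1.2 and 0.718 FPKM in SCF, and the germline reader Brdt at 0.186, 1.38 and 0.759 FPKM and at 0.185, 0 and 0 FPKM, both at very low levels. No gene of the COMPASS list had a limma p of at most 0.05.

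Markers of retinal cell types were present, with rod markers summing to 1336 to 2150 FPKM and Müller glia markers to 2019 to 3969 FPKM. Several marker sums moved with the groups or with the lists, and their part in the chromatin gene values was not tested. The 6 lens genes with a value summed to 19.7, 135 and 175 FPKM in NMDA and to 3886, 386 and 7228 FPKM in SCF. Rod markers summed to 1489, 1775 and 1336 FPKM in NMDA and to 2150, 1824 and 1908 FPKM in SCF. Pigment epithelium markers were at 784, 364 and 183 FPKM in NMDA and 699 to 925 FPKM in SCF, and Müller glia markers at 3969, 2019 and 2250 FPKM in NMDA and 3073 to 3259 FPKM in SCF. Ganglion cell markers were at 346, 160 and 148 FPKM in NMDA and 191 to 227 FPKM in SCF. In these 3 sums the list B libraries were the lowest. Microglia markers were at 140, 290 and 35.4 FPKM in NMDA and 219 to 301 FPKM in SCF. Markers of cycling cells summed to 11.5 to 11.7 FPKM in NMDA and to 13, 19.6 and 18.3 FPKM in SCF, and erythroid markers to 26.4 to 49.8 FPKM and 47.5 to 235 FPKM.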

How the data were processed

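Per the labels and the study's methods, oligo(dT)-enriched RNA of retina was sequenced (Illumina HiSeq). The authors deposited FPKM values per transcript for each library, and a table of library totals, from which the count of clean reads and percent values of read quality were taken and 4 columns were not used. Aligner, counter and strand setting were not given in the sources used here. The submitters' processing notes list build mm9, but 98.2% of 63313 Ensembl transcripts had the position that GENCODE M21 gives on GRCm38. Of the Ensembl transcripts, 46933 were in all files, 7529 in list A alone and 8966 in list B alone. FPKM was summed per Ensembl gene over those in all files, with no scaling. Groups were compared with limma 3.58.1 (R 4.3.3, variance trend) on log2(FPKM + 1), which understates changes of low genes, over the 25202 genes above 0 in at least 1 library, with Benjamini-Hochberg adjustment. Single sums and ratios were compared by two-sided exact permutation (20 splits). The fit across genes was also run on simulated data without a difference between lists. The fit was thus not tested under the list difference seen here. Fragments were FPKM times length, whole within 0.05 of a fragment or the file's rounding. They cover counting error only.

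Named genes are the 10 members with the smallest unadjusted p, the most abundant member of each of 13 families, pairs whose ratios did not overlap, members without a value or at 3 fragments or fewer, and the 2 genes of smallest p in each outside list. A gene that this rule names is not reported here. Other members were named after their values were seen. Members, lists and tests were chosen with earlier results of these data known. Same-numbered libraries did not deviate together (correlations -0.05, -0.05 and -0.08), so numbers were not used to pair libraries.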

Additional observations from a re-analysis of the deposited data

Results flagged for a closer look

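Transcripts listed in list A alone enter no comparison above. Their summed level over chromatin genes was 4.98 FPKM in the lowest SCF library, above the 4.35 FPKM of NMDA replicate 1, the 1 NMDA library with that list. With a single NMDA library the difference was not tested.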

How the results depend on the processing

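No member passed a fold of 2 with an adjusted p of 0.001 under any of the alternatives run. At an unadjusted limma p of 0.05 there were 10 members in the main fit, 4 higher and 6 lower in SCF. Shares of all genes are not given beside the counts under the alternatives. Among genes with a mean of at least 1 FPKM there were 6 (3 higher, 3 lower). With protein-coding transcripts only, an alternative chosen after seeing the data, there were 9, and more were higher (6) than lower (3). Leaving out each library in turn gave 6 to 26 in all, 2 to 8 higher and 2 to 20 lower. The highest values were those without NMDA replicate 1 (26 in all, 20 lower) and without NMDA replicate 2 (8 higher), and the lowest were those without SCF replicate 2 (6 in all, 2 lower) and SCF replicate 3 (6 in all, 2 higher). Without NMDA replicate 1 the NMDA group holds list B libraries alone. The replicate number as a block, which does not pair these libraries, gave 10 (3 higher, 7 lower), and voom on recovered fragments gave 12 (6 higher, 6 lower). The median member log2 fold change was 0.15 with the list as a term, which compares SCF with NMDA replicate 1 alone. This median lay on either side of 0 when libraries were left out. The log2 difference of the summed level was -0.16 with all transcripts of each file, where list B transcripts enter 2 libraries alone. Smarca5 turned to 0.21 with the list as a term. Of the checks on named members, 150 kept their direction and side of the threshold, 3 passed an adjusted p of 0.05 (Smarca5, Hdac1 and Kdm8 without NMDA replicate 1) and 1 reversed. For those 3, group and list cannot be told apart in that fit, and the share of all genes passing in it is not given. No member passed that adjusted p in the main fit, so keeping its side asks little. The size could still change. With the list as a term the log2 fold change went from 1.43 to 0.13 for Kdm8 and from -1.38 to -0.13 for Hdac1, but from -0.66 to -0.68 for Prmt9. The cause of these shifts was not tested beyond what the alternatives show by construction. Depth limits the genes under 1 FPKM, whose levels are often a handful of fragments.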
